A study of Mus musculus with 2 samples.

Results

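B lineage precursors in the knockout testis library were 109 of 17968 barcodes, within 35330 barcodes in both libraries. They were chosen from raw UMI (unique molecular identifier) counts per barcode, and every limit below is part of that choice. A barcode had to hold at least 5 UMIs over 6 B lineage genes (Cd79a, Cd79b, Ighm, Ebf1, Ms4a1 and Vpreb3) and at least 1 UMI over 5 precursor genes (Vpreb1, Igll1, Rag1, Rag2 and Dntt). It also had to have at most 20% mitochondrial UMIs and to stay under a limit on the summed UMIs of Prm1, Prm2, Tnp1 and Tnp2, the protamine and transition protein genes of spermatids. That limit lay between 162, the highest sum of a member, and 185, the lowest sum of a barcode left out by it. Testis cells of 8-month-old mice, wild type or Igf2bp1 KO (cKO in the design text), were profiled as single cells on the 10x Genomics platform, in 1 library per genotype. The series asks what loss of IGF2BP1, an RNA-binding protein, does to sperm production with age. The sources used here name neither the Cre line nor the deleted part of the gene nor the strain, and the design text names 2 mice without saying whether that is in all or per genotype. With 1 library per genotype no test between genotypes was possible, and all intervals below are 95% intervals for counting error only.

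A B cell precursor first assembles an immunoglobulin heavy chain gene with the RAG1 and RAG2 recombinase, while terminal transferase, the product of Dntt, adds bases at the joins. The new heavy chain is then held by a surrogate light chain made of VPREB and lambda5 (Igll1), and the resulting pre-B receptor signals through CD79A and CD79B. A burst of division follows, the surrogate light chain genes are switched off, and RAG is used again to join a kappa or lambda light chain gene. In adult mice this takes place mainly in bone marrow, and the testis is not known as a site of it.

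Of the 5 precursor genes, 4 lie close to another of them on the genome (GENCODE vM21 on GRCm38). Vpreb1 lies on the minus strand at chr16:16868403-16870843, and Igll1 lies on the same strand at chr16:16860671-16863985, with 4417 bases between the genes. Rag1 (minus strand, chr2:101638282-101649501) and Rag2 (plus strand, chr2:101624718-101632529) are 5752 bases apart. Dntt is on chromosome 19, from 41029275 to 41059525. The 250 bases upstream of the RefSeq starts of Igll1 and Rag1 (GRCm38.p6) are shown for a surrogate light chain and a recombinase gene of the rule, each 5′ to 3′ on the strand of its gene. Capitals mark CAGGTG on either strand, an E-box of the kind bound by E2A, and CCCNNGGG, the core bound by EBF1. The Igll1 window is chr16:16863986-16864235, minus strand, with the E-box match beginning 8 bases and the EBF core match 231 bases before the start. The Rag1 window is chr2:101649533-101649782, minus strand, with the E-box match beginning 135 bases before the start.
Igll1: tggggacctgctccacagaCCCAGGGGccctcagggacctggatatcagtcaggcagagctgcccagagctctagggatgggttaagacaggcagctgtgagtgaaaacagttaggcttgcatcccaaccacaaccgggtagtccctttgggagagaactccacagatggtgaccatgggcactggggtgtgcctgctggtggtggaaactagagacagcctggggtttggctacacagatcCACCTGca
Rag1: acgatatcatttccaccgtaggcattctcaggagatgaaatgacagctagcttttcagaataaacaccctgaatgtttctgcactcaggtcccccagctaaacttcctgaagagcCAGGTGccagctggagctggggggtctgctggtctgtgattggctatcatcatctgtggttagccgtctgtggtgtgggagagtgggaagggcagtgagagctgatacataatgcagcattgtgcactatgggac
CAGGTG was found in 4 of the 6 promoters of the precursor genes and Vpreb2, against 17.2% of 32851 promoters of this length. CCCNNGGG was found in 1 of the 6 against 11.8%, and GGGAA, the Ikaros core, in 5 of the 6 against 56.2%. These are matches of letters, not measured binding. Vpreb1 and Vpreb2 are near copies that share the stretch with their match, so they are not separate cases, and 190 and 137 bases of their windows lie in annotated exons.

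The wild type library held 17362 barcodes and 121257944 UMIs, and the knockout library 17968 barcodes and 98033324 UMIs, with medians of 1242 and 2097 UMIs per barcode and lowest barcodes of 943 and 1246. Igf2bp1, the targeted gene, was counted at 2.84 CPM (counts per 1e+06 UMIs of the group) in wild type and 2.03 CPM in the knockout, from 344 and 199 UMIs. As the deleted part is not named, these counts do not check the genotype. The libraries shared 106 barcode sequences, and 0 of the 109 precursor barcodes were among them. Free RNA from germ cells was present throughout: the 109 barcodes carried 28 to 162 protamine and transition protein UMIs each, with a median of 71. The lowest decile of knockout barcodes by UMIs, 1807 barcodes with a median of 1302 UMIs, served as the measure of free RNA.

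Barcodes that met the rule were found in the knockout library only. The 5 precursor genes themselves had 1222 UMIs in 616 knockout barcodes and 160 UMIs in 151 wild type barcodes. The limits were fixed in UMIs and not scaled to depth, with medians of 2097 UMIs in the knockout and 1242 in wild type. The 109 barcodes made up 0.607% of the knockout library (exact Clopper-Pearson interval 0.498% to 0.731%). In wild type 0 of 17362 barcodes met the rule, with an exact interval that reaches up to 0.0212%. The same limits with 0 precursor gene UMIs gave 249 further B lymphocytes in the knockout and 0 in wild type, so precursors were 30.4% (25.7% to 35.5%) of 358 B lineage barcodes. Other white blood cells were present in both libraries by a like rule, with 239 macrophages in the knockout and 44 in wild type, and 76 T or NK (natural killer) lymphocytes in the knockout and 8 in wild type. The highest B lineage sum of any wild type barcode was 5 UMIs, and 3 UMIs among those within the other limits. With 1 library each, genotype, animal and dissection cannot be told apart.

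The cell type markers Vpreb1, Igll1, Rag1, Ebf1 and Vpreb3 are all genes of the rule, so their levels describe the selection and do not test the label. At least 2 of these 5 markers were counted in 108 of the 109 barcodes and at least 3 in 99. The barcodes held 378340 UMIs in all, from 1364 to 22153 each with a median of 2677, and a median of 1595 genes. The mitochondrial share had a median of 3.70% and ran up to 14%, below the limit. The nearest barcodes on either side of the thresholds were 3 members with a B lineage sum of 5 against 2 barcodes outside with a sum of 4, and 38 members with a precursor sum of 1.

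The 5 precursor genes gave 600 UMIs in the 109 barcodes, with a median of 3 and a highest value of 27 per barcode. These values made the selection and are given as a description. Vpreb1, which with Igll1 forms the surrogate light chain, had 327 UMIs in 74 barcodes (864 CPM, at most 21 UMIs in 1 barcode). Igll1 had 218 UMIs in 59 barcodes (576 CPM, at most 13). Rag1 had 31 UMIs in 29 barcodes (81.9 CPM), Rag2 had 12 UMIs in 10, and Dntt had 12 UMIs in 10. Single transcripts of Rag1, Rag2 and Dntt were therefore near the limit of detection in most barcodes that had them. At the rate of the lowest decile, 3.83 CPM, free RNA would give 1.45 UMIs of the 5 genes in the 109 barcodes and 4.20 UMIs in all 358 B lineage barcodes, from which members were chosen. The recombinase-only class described next holds 31 of the 600 UMIs. A precursor gene UMI was found in 2 of 314 T, NK and macrophage barcodes (0.637%, 0.0772% to 2.28%) at a median depth of 2759.5 UMIs. These were 2 of 76 T or NK barcodes (2.63%, 0.320% to 9.18%) and 0 of 239 macrophages. In the lowest decile, 9 of 1807 barcodes had one (0.498%).

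**Figure D1:**
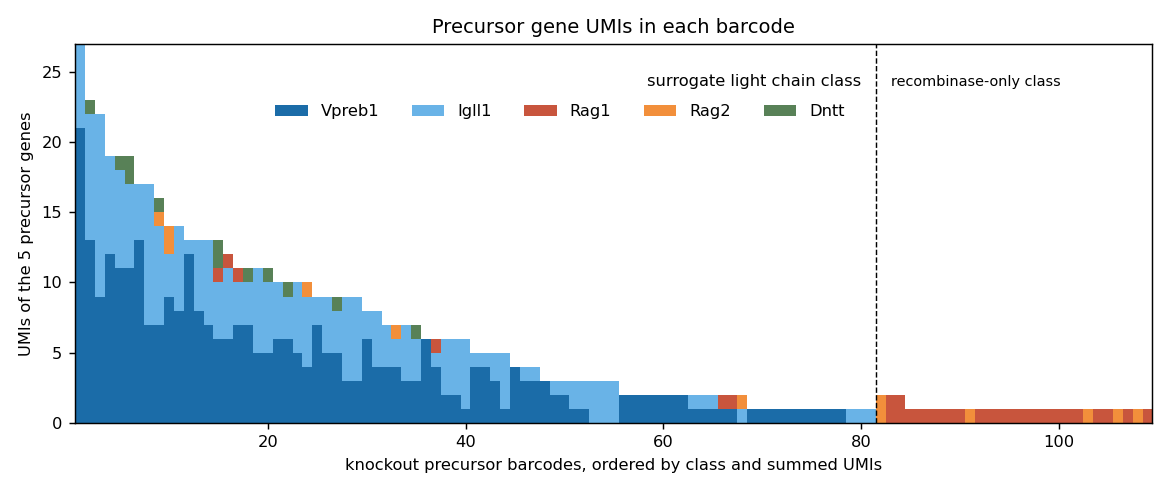
UMIs of Vpreb1, Igll1, Rag1, Rag2 and Dntt in each of the 109 precursor barcodes, stacked by gene, with the 81 surrogate light chain barcodes left of the dashed line and the 28 recombinase-only barcodes right of it. The left-hand barcodes reach 27 UMIs, mostly Vpreb1 and Igll1, and no right-hand barcode passes 2.

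Which precursor genes occurred together split the barcodes into a large and a small class. The surrogate light chain class, with a UMI of Vpreb1 or Igll1, held 81 barcodes (74.3%, 65.1% to 82.2%), and the recombinase-only class, with Rag1 or Rag2 and neither of these, held 28. Vpreb1 and Igll1 were found together in 52 barcodes, of 74 with Vpreb1 and 59 with Igll1. Dntt was found in 10 barcodes, and each of these also held Vpreb1 and Igll1. Rag1 and Rag2 were never counted in the same barcode, at 29 and 10 barcodes, and 11 of the 81 surrogate light chain barcodes held either. The most frequent patterns were Vpreb1 with Igll1 in 36 barcodes, Rag1 alone in 23 and Vpreb1 alone in 20. Both classes had median depths that limit such patterns, 2945 UMIs in the surrogate light chain class and 2301.5 in the recombinase-only class.

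Vpreb2, a near copy of Vpreb1 on the same chromosome that the rule did not use, was counted almost only in the surrogate light chain class. All 98 of its UMIs in precursors fell in 38 of the 81 surrogate light chain barcodes (46.9%, 328 CPM), and 0 of 28 recombinase-only barcodes had any. Of the 38 barcodes, 34 also held Vpreb1 and 34 held Igll1. The other 249 B lymphocytes had 4 UMIs in 3 barcodes (5.58 CPM), and none was found in 314 T, NK and macrophage barcodes or in the lowest decile. Precursors were thus higher than the other B lymphocytes by 5.54 on the log2 scale (4.14 to 7.44). After thinning every barcode to 1200 UMIs, Vpreb2 was found in 26 of 109 precursors and 0 of 249 other B lymphocytes. The longest transcripts of Vpreb1 and Vpreb2 are identical at 739 of 759 aligned bases, so reads of the pair may be assigned to the wrong copy and the split between them is uncertain.

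The precursors were next set against the 249 B lymphocytes without precursor genes of the same library (717073 UMIs, median 2407 per barcode). A gene is called higher or lower here where the ratio of CPM is at least 2-fold and its exact conditional binomial interval leaves out 1. Of 7053 genes with at least 20 UMIs over both groups, 238 (3.37%) were higher and 223 (3.16%) lower in precursors, and the median log2 ratio was -0.01. Beside this background, 9 of 23 tested proliferation genes were higher in precursors. Lower were 6 of 6 immunoglobulin constant genes and 6 of 14 mature B cell genes. The lower genes include Ighm and Ms4a1, which the rule used, and Ighd is counted in both lists. All barcodes of both groups come from 1 library, so the intervals say nothing on variation between animals.

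**Figure D2:**
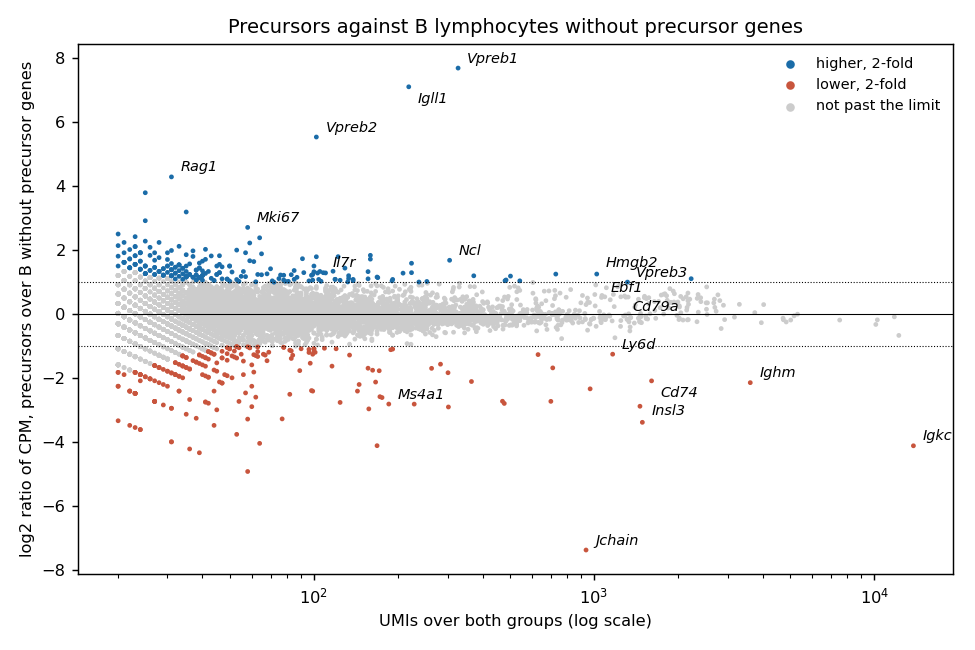
Each point is 1 of 7053 genes, with UMIs over both groups on a log axis and the log2 ratio of CPM in the 109 precursors over the 249 B lymphocytes without precursor genes. Genes absent from a group are drawn at the ratio to a floor of 3 counts over that group, and named genes range from Jchain near the bottom to Vpreb1, which the rule used, at the top.

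Receptor genes of the B lineage come first. Cd79a, the signalling chain of the B cell and pre-B receptors, was at 1134 CPM in precursors and 1180 CPM in the other B lymphocytes, and Cd79b, its partner, at 597 and 601 CPM. Both are rule genes that had to add to the B lineage sum in either group, so these levels are a description. Of 10 tested receptor signalling genes, 2 were higher and 1 lower, with a median log2 ratio of -0.16. Blnk, the adaptor that links the receptor to calcium signalling, was higher at 180 against 89.3 CPM (log2 1.01, 0.50 to 1.53). This call sits on the limit and was lost in 6 settings, with ratios from 0.67 after thinning to 0.99 without the barcodes rich in Jchain. Ptpn6, the inhibitory phosphatase SHP-1, was lower at 15.9 against 53.0 CPM (log2 -1.74), from 6 and 38 UMIs. Cd22, an inhibitory receptor, had 0 UMIs in precursors and 7 in the other B lymphocytes, under the 20 UMIs asked for, so it was not tested.

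Vpreb3, an endoplasmic reticulum partner of the pre-B receptor and a rule gene, was at 1766 CPM in precursors and 891 CPM in the other B lymphocytes. It was found in 107 of 109 precursors and 189 of 249 others, and after thinning in 96 and 143. Ebf1, the factor that commits cells to the B lineage, was at 1213 against 842 CPM. Of 17 tested B lineage transcription factor genes, 3 were higher and 1 lower, and the median log2 ratio was 0.66. Lef1, a factor of early B cell growth, was at 100.4 against 26.5 CPM (log2 1.92, 1.09 to 2.80), Runx1 at 74.0 against 20.9 CPM (log2 1.82, 0.87 to 2.83) and Myb, needed for early lymphoid cells, at 145 against 68.3 CPM (log2 1.09, 0.51 to 1.67). The call for Myb was lost in 4 settings, with ratios from 0.84 with free RNA taken off to 0.92 at a B lineage sum of at least 10. Spib, a factor of later B cells, was lower at 42.3 against 93.4 CPM (log2 -1.14, -2.03 to -0.34), a call lost after thinning and without barcodes with at least 2 T cell or macrophage UMIs. Pax5, the keeper of B cell identity, had 143 against 87.9 CPM and did not reach the 2-fold limit (log2 0.70, 0.15 to 1.25).

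Among the surface receptors of precursors, 1 of 6 tested genes was higher and 2 were lower. Il7r, the interleukin-7 receptor on which mouse B cell precursors depend, was at 161 against 65.5 CPM (log2 1.30, 0.73 to 1.88), in 40 of 109 and 38 of 249 barcodes. Its ratio was 0.81 after thinning to 1200 UMIs and 0.90 over barcodes with at least 2 precursor gene UMIs, both short of the limit. Ly6d was lower at 560 against 1329 CPM (log2 -1.25, -1.47 to -1.03), and its ratio after thinning was -0.83. Cd2 was lower (log2 -1.33, -2.56 to -0.28), from 9 and 43 UMIs, a call lost after thinning. The receptors of earlier progenitors were nearly absent, with 0 UMIs of Flt3, 3 of Kit and 3 of Il2ra in the 109 barcodes, a level that cannot show a difference.

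The recombinase and end joining list had 5 of 12 genes tested, with Hmgb1 and Hmgb2 higher besides the rule gene Rag1. Hmgb1, a DNA bending protein and cofactor of RAG that dividing cells also make in quantity, was at 1076 against 450 CPM (log2 1.26, 1.04 to 1.47). Hmgb2 was at 1507 against 630 CPM (log2 1.26, 1.08 to 1.44). Hmgb1 missed the limit at 0.96 after thinning. At a protamine sum under 50 UMIs both missed it, Hmgb1 at 0.15 and Hmgb2 at 0.22. Without the rule genes the median of the list was 0.91.

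Proliferation genes were higher in precursors for 9 of 23 tested and lower for 0, with a median log2 ratio of 0.96. Tubb5 and Hmgn2, among the 9, are also made by resting cells. Mki67, the marker of dividing cells, was at 119 CPM in precursors and 18.1 CPM in the other B lymphocytes (log2 2.71, 1.80 to 3.73), in 20 of 109 and 11 of 249 barcodes. Hmgn2 was at 275 against 76.7 CPM (log2 1.84), Ube2c, which drives exit from mitosis, at 267 against 80.9 CPM (log2 1.72) and Tyms, which makes thymidylate for DNA, at 47.6 against 11.2 CPM (log2 2.09). Ccna2 (log2 1.98), Cenpa (1.44), Tubb5 (1.20), Tpx2 (1.18) and Nusap1 (1.04) were the others past the limit, of which Tubb5 came to 0.97 with free RNA taken off and Nusap1 to between 0.89 and 0.99 in 3 settings. Ncl, a nucleolar protein, was at 507 against 158 CPM (log2 1.69, 1.34 to 2.04). The ranking also named Cplx2 (log2 2.39), Ifitm2 (2.23) and Rcsd1 (1.80) as higher, the call for Cplx2 being lost after thinning.

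Barcodes with proliferation transcripts were counted after thinning each to 1200 UMIs, over 21 proliferation genes, without Stmn1, Tubb5 and Hmgn2. At least 2 UMIs were found in 45 of 109 precursors (41.3%, 31.9% to 51.1%), 70 of 249 other B lymphocytes (28.1%, 22.6% to 34.1%), 15 of 76 T or NK barcodes (19.7%) and 42 of 239 macrophages (17.6%). Meiotic germ cells make many of these transcripts, and 25.9% of lowest decile barcodes passed, inside the interval of the other B lymphocytes. At least 5 UMIs, a count chosen after seeing the data, were found in 14 of 109 precursors (12.8%, 7.20% to 20.6%) and 14 of 249 other B lymphocytes (5.62%, 3.11% to 9.25%), against 0.443% of the lowest decile. All 14 precursors were in the surrogate light chain class. Without thinning the share with 2 UMIs was 69.7% in precursors.

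Immunoglobulin constant genes were lower in precursors for 6 of 6 tested, with a median log2 ratio of -2.12. Igkc, the kappa light chain constant gene, had 410 UMIs in 81 precursors (1084 CPM, at most 15 in 1 barcode) and 13392 UMIs in 228 other B lymphocytes (18676 CPM, at most 3386), a log2 ratio of -4.11 (-4.25 to -3.97). Among the other B lymphocytes, the 6 barcodes with at least 10 Jchain UMIs, a split made after seeing the data, held 10942 of those Igkc UMIs and 2267 of 3223 Ighm UMIs. Without these 6 barcodes the ratio of Igkc was -1.72, still lower, while that of Ighm, the mu heavy chain, went from -2.14 to -0.45, short of the limit. Ighm, a rule gene, was found in 97 of 109 precursors and 233 of 249 others. Iglc1, a lambda light chain constant gene, was at 106 against 453 CPM (log2 -2.10, -2.61 to -1.62), Iglc3 at 97.8 against 211 CPM (log2 -1.11) and Ighd, of the IgD class, at 21.1 against 57.2 CPM (log2 -1.44). The calls for Iglc3 (-0.92) and Ighd were lost after thinning. All 5 Iglc2 UMIs of the precursors were in 1 barcode. Igkc is also in free RNA, with a UMI in 101 of 1807 lowest decile barcodes and 37 of 314 T, NK and macrophage barcodes, and Ighm was found in 65 of those 314. None of the 6 switched constant genes had a UMI in any precursor.

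Mature B cell genes were lower for 6 of 14 tested and higher for 0, at a median of -0.99. Ms4a1, the CD20 antigen and a rule gene, was at 34.4 against 240 CPM. Cd74, the invariant chain of antigen presentation, was at 470 against 1989 CPM (log2 -2.08, -2.31 to -1.85), in 44 of 109 and 191 of 249 barcodes. H2-Aa, an MHC class II chain, was at 114 against 335 CPM (log2 -1.56, -2.06 to -1.09), and H2-Eb1, another, had a ratio of -1.27. Tnfrsf13c, the receptor for the survival factor BAFF, was at 13.2 against 41.8 CPM (log2 -1.66) from 5 and 30 UMIs. Macrophages hold Cd74 and MHC class II too, and 1 precursor barcode gave 51.2% of the H2-Aa UMIs and 25.8% of the Cd74 UMIs.

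Plasma cell genes were lower for 2 of 3 tested. Jchain, which joins secreted antibody, had 0 UMIs in precursors and 936 in the other B lymphocytes, at least 165-fold lower against a floor of 3 counts over the group. That size rests on the 6 barcodes rich in Jchain, which held 919 of the 936 UMIs, and without them too few were left for a ratio. Xbp1, the secretory factor, was at 21.1 against 73.9 CPM (log2 -1.81), and -0.60 without the 6 Jchain barcodes. The stress list had 3 of 5 tested genes lower, Egr1 (log2 -2.19), Fos (-1.68) and Junb (-1.09), at a median of -1.15. Fos came to -0.85 after thinning and -0.47 without barcodes with at least 5 Leydig UMIs, and Junb to between -0.97 and -0.92 in 3 settings. Both calls were lost there. At a protamine sum under 50 UMIs the call for Junb was also lost. Precursors had 0 Junb UMIs there, and the ratio of 0.02 is that of the floor of 3 counts. Survival genes had 0 of 4 tested higher or lower, at a median of 0.17. The remaining genes that ranked lowest in precursors were Insl3, Ptgds, Gstm1, Gstm2, Fabp3 and Agt, most of them abundant in Leydig cells, and Ly6a with 1 UMI against 57. Insl3, the Leydig hormone, was at 190 against 1973 CPM (log2 -3.37). The 6 Leydig markers summed to 312 CPM in precursors, 2679 CPM in the other B lymphocytes and 563 CPM in the lowest decile. Without the 3 precursors and 19 other B lymphocytes with at least 5 Leydig UMIs, the ratio of Insl3 was -0.41 and none of the other Leydig-type genes named here passed the limit.

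In the IGF2BP family, Igf2bp1 and Igf2bp2 had 0 UMIs among the 378340 of the precursors. That allows up to 7.93 CPM each, taken as 3 counts over the group. For Igf2bp1 that limit is above the level of either whole library, so no difference was detectable at this depth. Igf2bp3 had 23 UMIs in 20 barcodes (60.8 CPM), against 64.1 CPM in the other B lymphocytes and 87.7 CPM in the lowest decile, so its level was no higher than that of free RNA. Lin28b, a partner of this family in fetal lymphocyte formation, had 0 UMIs. Of the list for fetal-type lymphocyte formation, 0 of 2 tested genes were called.

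**Figure D3:**
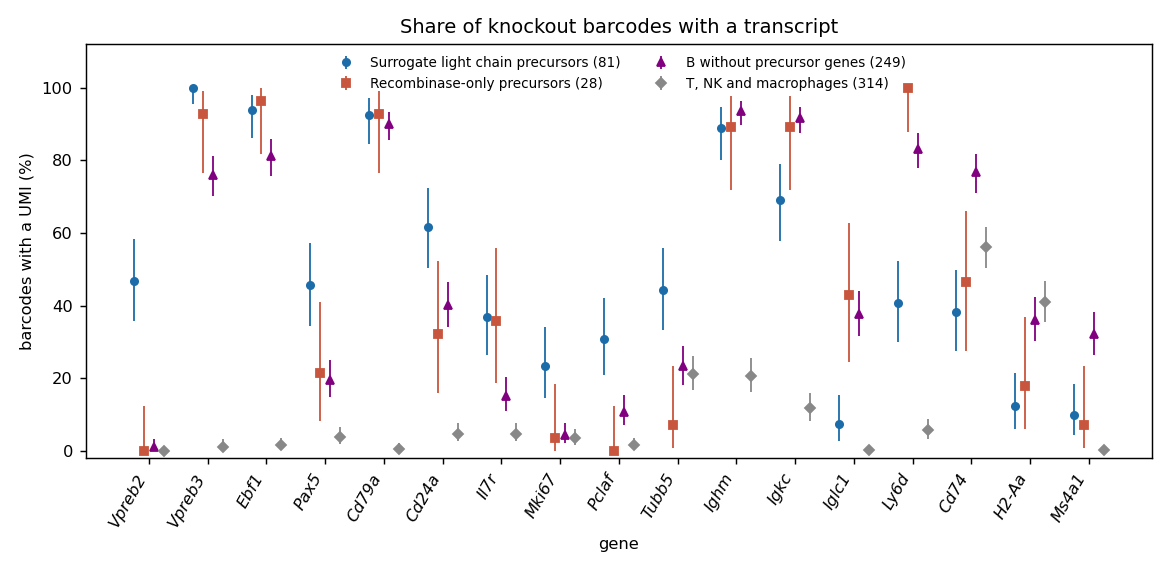
Share of barcodes with a UMI for 17 genes in 4 groups of knockout barcodes, with exact binomial intervals and group sizes in the legend. Vpreb2 was found in 46.9% of surrogate light chain precursors and Ly6d in all 28 recombinase-only precursors and 83.1% of the B lymphocytes without precursor genes. The B lineage genes of the rule (Vpreb3, Ebf1, Cd79a, Ighm and Ms4a1) helped to choose the groups.

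Within the precursors, the surrogate light chain class (299131 UMIs) was set against the recombinase-only class (79209 UMIs). Of 3491 genes tested, 229 (6.56%) were higher and 172 (4.93%) lower in the surrogate light chain class, with a median log2 ratio of -0.13. Scaled by the median ratio, which raises every ratio by 0.13, the counts were 296 and 100. The surrogate light chain class carried more division transcripts and more Cd24a, and the recombinase-only class more light chain transcripts and more Ly6d. Protamine and transition protein UMIs were at 20229 CPM in the surrogate light chain class and 27307 CPM in the recombinase-only class, and their part in these differences was not tested.

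Proliferation genes were higher in the surrogate light chain class for 10 of 18 tested and lower for 0, at a median of 1.97. Rrm2, among the 10, passed only because the recombinase-only class had 0 UMIs. Its log2 ratio was 0.89 against a floor of 3 counts, short of the limit. Tubb5, a tubulin, had 202 UMIs in 36 surrogate light chain barcodes (675 CPM) and 2 UMIs in 2 recombinase-only barcodes (25.2 CPM). Its log2 ratio was 4.74 (2.87 to 7.80). Resting cells also make Tubb5, Hmgn2 and Stmn1, all among the 10. Mki67 was at 147 against 12.6 CPM (log2 3.54, 0.99 to 8.88), from 44 UMIs and 1 UMI. Top2a, which untangles DNA, was at 334 against 50.5 CPM (log2 2.73, 1.33 to 4.63). Pclaf, a PCNA clamp factor, had 103 UMIs against 0, at least 9.09-fold higher against a floor of 3 counts. The histone genes Hist1h2ap (log2 3.88) and Hist1h2ae (4.54) were also among the highest. Crip1 was at 896 against 88.4 CPM (log2 3.34), and Hmgb2 at 1812 against 353 CPM (log2 2.36, 1.81 to 2.96). Birc5 and Ccnb2, both also made by germ cells, did not pass, at 0.17 and -0.31. At the thinned depth, at least 2 proliferation UMIs were found in 38 of 81 surrogate light chain barcodes (46.9%, 35.7% to 58.3%) and 7 of 28 recombinase-only barcodes (25%, 10.7% to 44.9%), the second at the level of the lowest decile.

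Light chain transcripts went the opposite way, with 3 of 4 tested immunoglobulin constant genes lower in the surrogate light chain class. Igkc was at 883 CPM in the surrogate light chain class and 1843 CPM in the recombinase-only class (log2 -1.06, -1.36 to -0.76), in 56 of 81 and 25 of 28 barcodes, and after thinning in 37 and 22. This ratio is close to the limit and missed it at -0.96 after thinning. Iglc1 was at 36.8 against 366 CPM (log2 -3.32, -4.47 to -2.27), in 6 of 81 and 12 of 28 barcodes, and Iglc3 at 50.1 against 278 CPM (log2 -2.47, -3.52 to -1.46). Ighm differed less, at 949 against 1300 CPM (log2 -0.45).

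Ly6d, a membrane protein of lymphocytes, was found in all 28 recombinase-only barcodes (1528 CPM) and in 33 of 81 surrogate light chain barcodes (304 CPM), a log2 ratio of -2.33 (-2.74 to -1.92). After thinning it was in 25 of 28 and 21 of 81, against 2 of 76 T or NK barcodes and 6 of 239 macrophages. Cd24a, a surface glycoprotein of developing B cells, was at 558 CPM in the surrogate light chain class and 126 CPM in the recombinase-only class (log2 2.14, 1.23 to 3.23). The rule gene Vpreb3 was at 1999 against 884 CPM (log2 1.18), and Mzb1, a chaperone of the mu chain, at 438 against 164 CPM (log2 1.42, 0.59 to 2.36). Vpreb3 came to 0.86 with free RNA taken off and 0.76 at a protamine sum under 50 UMIs, and Mzb1 to 0.58 after thinning, both short of the limit. Rhoh was lower at 147 against 454 CPM (log2 -1.63, -2.30 to -0.95), and Syk, the kinase of the receptor, had a ratio of -1.14 (-2.15 to -0.08), a call lost in 4 settings. Il7r did not differ past the limit (log2 -0.55, -1.38 to 0.36), nor did any of 14 tested transcription factors. Bax, a death effector, was higher (log2 2.13), from 33 UMIs and 2, a call lost with free RNA taken off and over barcodes with at least 2 precursor gene UMIs. Igf2bp3 was lower (log2 -2.04), at 36.8 against 151 CPM, beside the 87.7 CPM of free RNA.

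**Figure D4:**
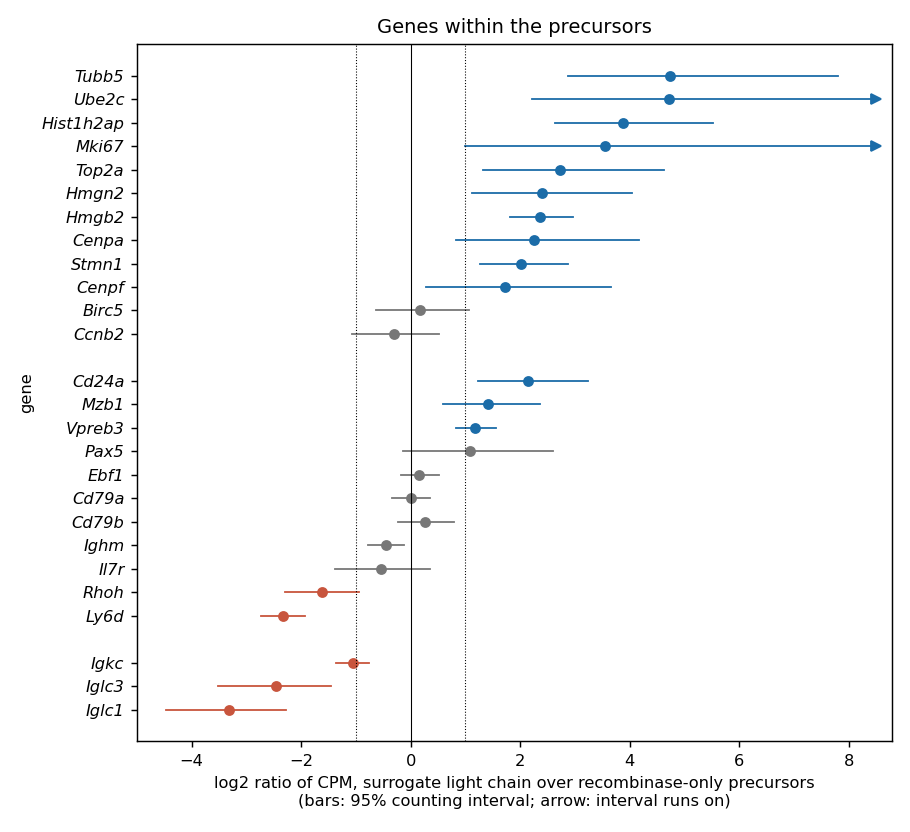
Log2 ratio of CPM in the 81 surrogate light chain over the 28 recombinase-only precursors, with 95% counting intervals, for 12 division-linked genes, 11 B lineage or surface genes and 3 light chain genes. Dotted lines mark the 2-fold limit. Tubb5 lies at 4.74 and Iglc1 at -3.32, and grey points such as Cd79a did not pass.

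Some of the lowest ranked genes rested on 1 barcode. A recombinase-only barcode held 47 macrophage marker UMIs and 88.1% of that class's Apoe UMIs, and the ratio of Apoe went from -2.85 to 0.0054 once barcodes with at least 2 T cell or macrophage UMIs were left out. The ratio of Cd74 went from -1.62 to -0.39, that of H2-Aa from -2.97 to -1.03 and that of H2-Ab1 from -2.09 to -0.40, and none of these 3 then passed. The mature B list, with 4 of 6 tested genes lower, therefore rests on that setting, and Igkc in turn came to -0.93 without these barcodes. Cfap97, Dnajc7, Ccdc113 and Dnaaf1, genes with high levels in germ cells or known from cilia, ranked among the 10 lowest beside Btg2, with the protamine levels given above.

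The number of precursor gene UMIs in a barcode followed the same division. Barcodes with a sum of 1, 2 to 4, and at least 5 numbered 38, 27 and 44. Vpreb2 was at 9.97, 348 and 349 CPM in these, and Mki67 at 9.97, 120 and 172 CPM. Igkc was at 1934, 1445 and 531 CPM, and Iglc1 at 339, 66.9 and 4.92 CPM. Ly6d was at 1386, 549 and 157 CPM, and the other B lymphocytes, with a sum of 0, stood at 1329 CPM. At 1 UMI the barcodes thus had Ly6d and Mki67 at levels of the other B lymphocytes, with intervals that overlap, but Igkc below them, the 6 barcodes rich in Jchain included. Median depth also differed, at 2263.5, 2521 and 3527.5 UMIs, and most recombinase-only barcodes are in the lowest of these, so that class, depth and sum cannot be told apart here.

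**Figure D5:**
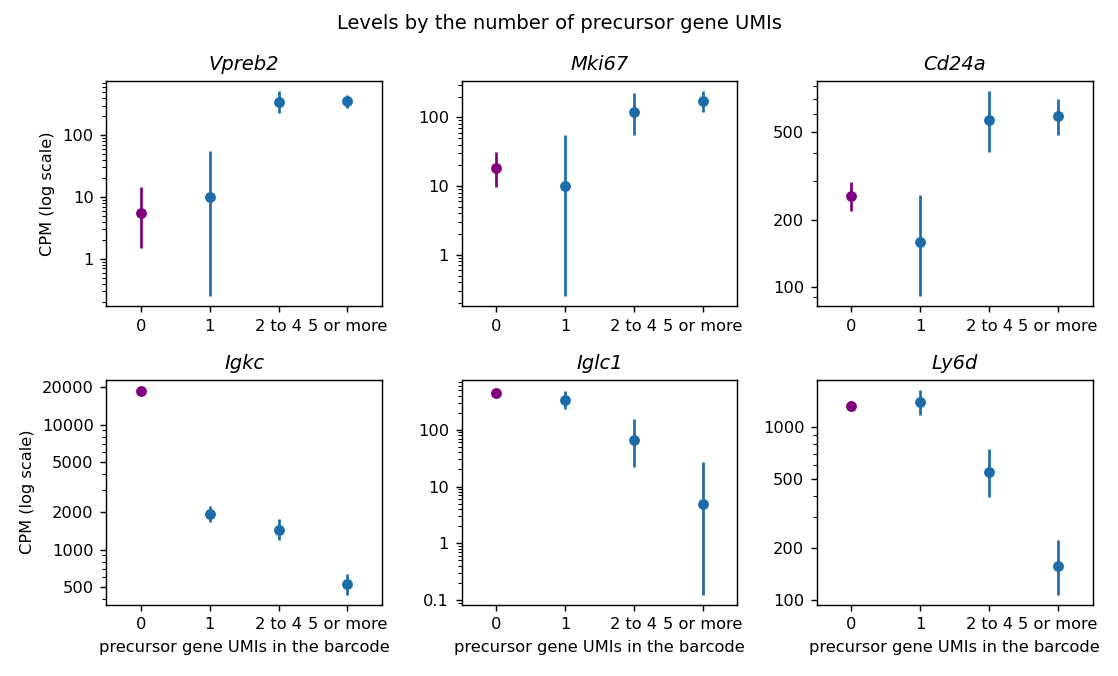
Level of 6 genes in CPM (log axes, 95% Poisson intervals) in the 249 B lymphocytes without precursor genes (0) and in precursors with 1, 2 to 4 or at least 5 precursor gene UMIs. From 1 to at least 5 UMIs, Ly6d went from 1386 to 157 CPM and Mki67 from 9.97 to 172 CPM.

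Markers of other cell types were counted in the precursors, and their part in the results was not tested. T cell markers gave 15 UMIs (39.6 CPM, against 53.2 CPM in the lowest decile), with 8 of 12 at 0, among them Cd3g, Trac, Cd4, Cd8a and Ptcra. NK markers gave 1 UMI, with 4 of 5 at 0, and plasmacytoid dendritic markers 6 UMIs, with Siglech and Ccr9 at 0. Macrophage markers gave 65 UMIs (172 CPM, against 107 CPM in the lowest decile), of which 47 were in 1 barcode, with Cd14 at 0. Markers of neutrophils and their precursors gave 2 UMIs, with 10 of 11 at 0, including S100a8, S100a9 and Elane. Erythroid markers gave 35 UMIs (92.5 CPM, against 16.2 CPM in the lowest decile), of which 32 were in 1 barcode, with Car1 and Klf1 among those at 0. Stem and progenitor markers gave 4 UMIs (10.6 against 7.24 CPM), with Mecom at 0. All 17 endothelial marker UMIs (44.9 against 5.96 CPM) were of Pecam1, an adhesion molecule that white blood cells also carry, in 16 barcodes, with Cdh5 and Kdr at 0. Sertoli markers gave 57 UMIs (151 against 146 CPM, Wt1 and Amh at 0), mesenchymal markers 7 (Pdgfra at 0) and myoid markers 1 (Acta2 and Tagln at 0). Germ cell markers summed to 26254 CPM, below the 55547 CPM of the lowest decile, with all 10 genes counted. Most of both sums came from Prm1, Prm2, Tnp1 and Tnp2, at 21711 and 46919 CPM. The rule limits these genes in the precursors, so the lower sum describes the selection.

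Variable gene transcripts were too few to compare rearrangements. Heavy chain variable genes gave 5 UMIs in 5 precursors, from 5 different genes, and kappa variable genes 11 UMIs in 10. With at least 2 UMIs asked for, 0 of 109 precursors could be assigned either a heavy or a kappa variable gene. That allows up to 2.75%, taken as 3 counts over the group. Among the other B lymphocytes, 4 were assigned a heavy chain variable gene, from 4 different genes, and 7 a kappa variable gene, from 6.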

How the data were processed

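Testis cells of 1 wild type and 1 knockout library were analysed from raw UMI counts per gene and barcode (31053 genes), as deposited by the authors. Cell Ranger 2.2.0, STAR and mm10 are named in the submitters' processing notes, and software version 3.1.0 per the file headers. How cells were called, and with which annotation, was not given in these sources. The members and gene lists were chosen with earlier results of these data known. No barcode was removed as a doublet and no doublet caller was run.

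Counts were summed per group, because cells of 1 library are not replicates, and no p-value is given. Ratios of CPM carry exact conditional binomial intervals, shares Clopper-Pearson intervals and levels Poisson intervals (Python 3.11.15, numpy 2.4.6, pandas 2.3.3, scipy 1.17.1, matplotlib 3.10.9). In the ratios given, a group at 0 was set against a floor of 3 counts over the group. Calls used the counted ratio, so a gene at 0 in 1 group passed the 2-fold limit by itself. T or NK barcodes (Cd3d, Cd3e, Cd3g, Trac, Trbc1, Trbc2, Nkg7) and macrophages (C1qa, C1qb, C1qc, Csf1r, Adgre1, Cd68) had at least 5 UMIs of their genes and a B lineage sum under 5. Genes named are the rule genes, the IGF2BP family, members of 13 stage lists, and the 10 highest and lowest per comparison with at least 50 UMIs, ranked by the interval bound nearest to 1. Numbered gene models, variable, haemoglobin, mitochondrial and ribosomal protein genes were left out of the ranking. On simulated counts, 2.5-fold changes were set in 100 genes per comparison, all with at least 50 UMIs over both groups. They were recovered in 85% (precursors against other B lymphocytes, 7096 genes run) and 84% (between classes, 3527 genes run). Recovery was not simulated for genes with fewer UMIs, though calls were made from 20 UMIs. Of unchanged genes, 1.73% and 2.22% were called. The simulation had counting error only and no variation between barcodes. These rates therefore do not cover genes whose UMIs lie in few barcodes, such as Apoe. Of 31053 gene identifiers, 31011 matched GENCODE vM21. No protein sequence was used. Results for some list members are not reported here.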

Additional observations from a re-analysis of the deposited data

Results flagged for a closer look

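A signal outside the barcodes described above lay in 65 further knockout barcodes that passed the B lineage and precursor limits and the mitochondrial limit but were over the limit on protamine and transition protein UMIs, at 185 or more, against 0 in wild type with no other limit. Their median was 20336 UMIs (4855 to 75668) and 1464 protamine and transition protein UMIs. In 57 of them the precursor UMI was Vpreb1 or Igll1, 52 also held Cd79a or Cd79b, and 18 had at least 2 precursor gene UMIs. What these barcodes hold was not tested.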

How the results depend on the processing

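Of 200 main results recomputed under other settings, 168 were judged the same. Counts had to stay within 1.5 times, shares inside the main interval, and list medians within a margin set from the intervals of their genes. Of 1312 values for single genes, 1208 kept their call or lack of one, 90 lost the call and 9 gained it. A further 5, called in the main setting, changed sign. The sign was not compared for genes without a call there. Of these, Cd24a went from 0.87 to -1.20 against the other B lymphocytes at a protamine sum under 50. The members numbered 71 with at least 2 precursor gene UMIs, 174 with no protamine limit (added after seeing the data) and 5 with a protamine sum under 50. With at least 2 precursor gene UMIs only 3 recombinase-only barcodes were left, and between the classes 49 genes were higher and 79 lower. The median of the immunoglobulin constant genes was then -3.04 and that of the stress genes -1.89, and Cenpf between classes turned to -0.59. For the 5 barcodes under 50 protamine UMIs, the share with proliferation transcripts was 20%. They gave 16 higher and 26 lower genes against the other B lymphocytes, and 4 and 3 between classes. Medians were -0.22 and -0.39 for the immunoglobulin constant and stress genes. There Ly6d turned to 0.50, Tubb5 to -0.61 and Ighm to 0.65 against the other B lymphocytes, from few UMIs. Apoe between classes turned to 0.0054 without barcodes with 2 or more T cell or macrophage UMIs. The share with proliferation transcripts was 69.7% unthinned, 70.6% with at least 1 UMI and 12.8% with at least 5.

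Genes higher and lower against the other B lymphocytes numbered 100 and 100 after thinning, which leaves fewer genes to test, 400 and 406 with free RNA taken off, and 86 and 94 with at least 50 UMIs. A 1.5-fold limit gave 432 higher, and leaving out barcodes with 5 or more Leydig UMIs (added after seeing the data) gave 146 lower. Between the classes they numbered 83 and 48 after thinning, and the lower genes were 100 with median scaling, 45 with at least 50 UMIs and 325 at 1.5-fold. The pre-B receptor list, of whose 4 genes Vpreb1, Igll1 and Vpreb3 are rule genes, had a median of 5.28 after thinning, and 5 heavy chain variable genes were assigned at 1 UMI. The cause of these shifts was not tested. No paired analysis was possible because each genotype has 1 library. Rag1, Rag2 and Dntt, at 1 or 2 UMIs per barcode, and the 28 recombinase-only barcodes limit what depth can show.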
